A study of Mus musculus with 4 samples.

Results

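The variable segment of the antibody heavy chain was read here through the 185 genes whose symbols start with Ighv, among 31053 genes measured in each library. They were taken from the feature table by name, as 183 distinct symbols, since Ighv5-8 and Ighv1-13 each stand under 2 identifiers. Of the 39009 cell barcodes, 9804 carried a germinal center (GC) B cell subtype in the deposited annotation. In each of these cells the Ighv gene with the most UMIs (unique molecular identifiers, which mark single captured transcripts) was to be taken as its leading gene provided that it had 3 UMIs or more without a tie. Only 14 annotated cells met this rule, of which CK gave 7, C 4, K 2 and WT 1. Usage is therefore described mainly from detections, where a gene counts once in each cell in which it has at least 1 UMI. That change was made after the counts were seen.

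The cells were splenic B220+IgD- cells from mice on a C57BL/6J background, aged 8 weeks and killed 10 days after an injection of sheep erythrocytes, an antigen that elicits GCs. All mice carried the Cγ1-cre allele, which is placed in the Ighg1 locus and deletes floxed alleles in B cells that transcribe that locus. WT mice had no floxed allele, C mice had heterozygous loss of Crebbp (C_het_KO), K mice of Kmt2d (K_het_KO) and CK mice of both (CK_het_DKO). Each genotype was 1 mouse and 1 library, so no difference between genotypes has a replicate check and none was tested. All intervals are at 95% and take in counting error alone. A limit of the model is that Cγ1-cre lies in the heavy chain locus, as the V genes do, and which V gene haplotype is linked to it is not given in the sources used here.

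A heavy chain V region is assembled in each developing B cell by joining 1 V segment to a D and a J segment, and the assembled exon is transcribed together with a constant gene such as Ighm or, after class switching, Ighg1. A B cell as a rule expresses 1 assembled heavy chain, so its V gene marks the clone to which it belongs. In the GC the V exon is mutated, and cells are selected by how well their receptor binds antigen. Plasma cells, which leave this reaction to secrete antibody, hold far more immunoglobulin transcript than GC B cells. The V exon lies at the 5' end of the transcript while these libraries count 3' ends, so only a small part of the heavy chain transcripts is counted under a V gene.

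The sequences below are the first 300 coding bases of the genes on which the results turn, from the GENCODE vM21 transcripts of GRCm38. The coordinates are those of the whole gene. Ighv9-3 (chr12:114140692-114141122, minus strand) was the most detected gene in annotated cells of all 4 libraries. Capitals mark differences from Ighv9-2, the Ighv gene nearest to it in sequence, of which all 20 over the 351 coding bases (94.3% identity) lie in the stretch shown.
Ighv9-3: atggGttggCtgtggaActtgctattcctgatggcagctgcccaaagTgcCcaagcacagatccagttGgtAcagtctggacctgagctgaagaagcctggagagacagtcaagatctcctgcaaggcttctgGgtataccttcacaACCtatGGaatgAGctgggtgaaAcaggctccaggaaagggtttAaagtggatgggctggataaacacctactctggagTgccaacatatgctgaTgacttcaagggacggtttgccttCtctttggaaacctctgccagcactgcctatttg
Ighv1-9 (chr12:114583569-114584002, minus strand) was more frequent in GC B cells and plasma-marker cells than among B cells with few GC markers. Capitals mark differences from Ighv1-77, its nearest gene, with 27 in the stretch shown and 32 over the 351 coding bases (90.9% identity).
Ighv1-9: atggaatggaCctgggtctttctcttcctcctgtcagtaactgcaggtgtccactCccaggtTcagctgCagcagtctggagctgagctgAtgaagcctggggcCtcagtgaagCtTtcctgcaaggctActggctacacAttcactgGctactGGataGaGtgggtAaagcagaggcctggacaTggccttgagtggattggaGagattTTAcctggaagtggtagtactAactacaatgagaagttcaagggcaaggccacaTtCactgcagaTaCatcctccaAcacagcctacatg
Igkv1-117 (chr6:68121046-68121827, plus strand) and Igkv1-110 (chr6:68270485-68271267, plus strand) are kappa light chain V genes that were found beside Ighv1-9 in annotated and plasma-marker cells. Capitals mark where this pair differed, at 6 bases of the stretch shown and 10 of the 359 coding bases (97.2% identity).
Igkv1-117: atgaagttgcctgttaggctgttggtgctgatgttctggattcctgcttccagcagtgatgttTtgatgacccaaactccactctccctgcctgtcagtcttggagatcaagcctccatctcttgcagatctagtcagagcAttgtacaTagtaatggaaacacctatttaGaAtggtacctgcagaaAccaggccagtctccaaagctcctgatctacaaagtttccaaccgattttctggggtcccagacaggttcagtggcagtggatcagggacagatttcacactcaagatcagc
Igkv1-110: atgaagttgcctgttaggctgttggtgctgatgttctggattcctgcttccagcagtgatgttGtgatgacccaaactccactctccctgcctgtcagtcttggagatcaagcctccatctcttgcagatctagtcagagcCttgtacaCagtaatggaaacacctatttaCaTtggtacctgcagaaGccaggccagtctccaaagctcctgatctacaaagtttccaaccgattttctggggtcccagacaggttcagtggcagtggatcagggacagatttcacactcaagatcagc
Reads of 98 bases can still tell these genes apart in most positions. Of the windows of 98 bases, 82.7% in Igkv1-117 and 82.6% in Igkv1-110 occurred in no other Igkv transcript. For Ighv9-3 and Ighv1-9 all such windows (100% in each) occurred in no other Ighv transcript.

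The Ighv genes lay on chromosome 12 between 113572927 and 116010093 (GRCm38), with 183 of 185 on the minus strand, and began 150.2 to 2586.9 kb from Ighm. The annotation lists 113 as functional V genes, 70 as pseudogenes and 2 as IG_LV_gene. In any barcode 132 genes had a UMI, in annotated cells 109, and in annotated cells of all 4 libraries 23. Functional genes held 90.7% of the 842 Ighv UMIs in annotated cells, and pseudogenes held 77 UMIs (9.14%). Among the 94 functional genes with UMIs in annotated cells, the median identity to the nearest Ighv gene was 95.4%. In these genes a median of 100% of 98-base windows occurred in no other Ighv gene, and 0 genes had no such window. Somatic mutation also lowers the match of a read to its germline gene, and how much this affected the counts was not tested.

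For comparison, B cells without annotation were taken from barcodes with B cell markers, among them Cd79a, Cd79b and Ms4a1, and divided by how many of 7 GC markers they expressed. Those with fewer than 2 are called low-GC B cells (1708, 3059, 1312 and 1959 cells, with libraries ordered WT, C, K, CK here and wherever 4 values stand together), and the others unannotated GC-marker B cells (858, 659, 757 and 624). Plasma-marker cells, defined by Sdc1, Jchain, Prdm1, Tnfrsf17 and Derl3, numbered 42, 44, 62 and 56. T-marker cells, which should lack a heavy chain transcript, served to gauge free RNA. The 7 GC markers were compared between annotated and low-GC B cells. Low-GC B cells were chosen for few of these markers, so the comparison describes the classes and is no check of the annotation. Mef2b, for example, reached 482 to 573 CPM (UMIs per 1000000 UMIs) in annotated cells and 12.1 to 31.6 CPM in low-GC B cells, and S1pr2 139 to 148 and 3.03 to 5.05 CPM. Each pair of libraries shared 17 to 31 barcodes, and 0 to 4 among annotated cells.

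Heavy chain V transcripts were sparse in GC B cells and abundant in plasma-marker cells. In annotated cells the summed Ighv level was 23.1, 27.6, 7.73 and 23.6 CPM. It stood at 102, 103, 18.6 and 91.0 CPM in low-GC B cells and at 16.5, 25.02, 5.75 and 17.9 in unannotated GC-marker B cells. In plasma-marker cells it reached 537, 717, 161 and 756 CPM. The level in plasma-marker cells was thus above that in annotated cells in all 4 libraries, 25.2-fold as the geometric mean (exact sign-flip permutation test over the 4 libraries, p = 0.13). Per UMI of heavy chain constant genes the ratio was 1.02, and higher in 2 of 4 libraries. Annotated cells were below low-GC B cells in all 4, at a ratio of 0.284 (exact p = 0.13 by the same test). Per constant gene UMI this ratio was 0.688, with K turned to 1.25. With 4 libraries this two-sided test can give no p below the value printed as 0.13 after rounding. Single cells weighed on these sums. In the WT low-GC B cells 1 cell held 148 UMIs of Ighv1-42, and without cells with a leading gene the level there was 63.3 CPM.

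**Figure D1:**
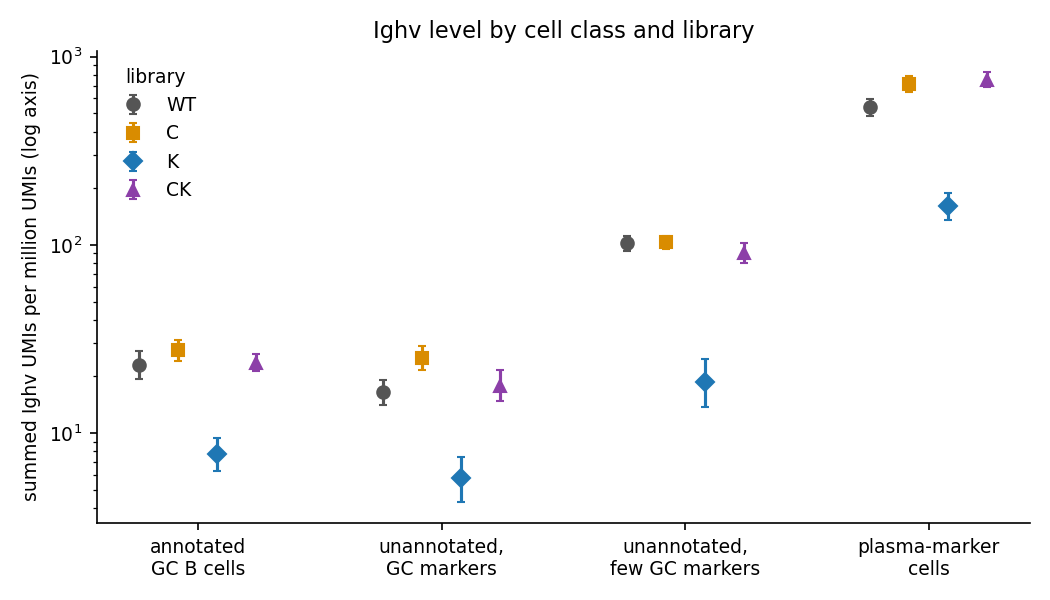
Summed Ighv UMIs per 1000000 UMIs (log axis) in 4 classes of cells, with 1 point per library and bars for the exact Poisson 95% interval. Plasma-marker cells lie highest in every library, and the K library lies lowest in every class, for example at 7.73 against 23.1 in WT for annotated cells.

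The shares of annotated cells with an Ighv UMI were 9.86%, 9.60%, 3.37% and 7.87%, at median depths of 4931, 4053, 4759 and 3653 UMIs. After each cell was thinned to 2000 UMIs the shares were 4.46%, 5.0%, 1.60% and 4.33%. In T-marker cells the unthinned shares were 0.382%, 0.0898%, 0.208% and 0%, at median depths of 3238, 2376, 2692 and 1930.5 UMIs. Of the 7 Ighv UMIs in WT T-marker cells, 5 were Ighv1-9 UMIs of 1 cell. The count of 0 among 1982 T-marker cells of CK allows a share of up to 0.151% when the limit is set at 3 cells, and up to 0.186% by the exact Clopper-Pearson interval. The shares in annotated cells lay above this background in each library. Of all annotated cells 9089 had no Ighv UMI, 623 had 1, 67 had 2 and 17 had 3, and the highest count in a cell was 5.

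The K library had the lowest Ighv level in annotated, low-GC B, unannotated GC-marker B and plasma-marker cells, while its heavy chain constant genes did not fall with it. In annotated cells the Ighv CPM in K was 0.335 times that in WT (interval 0.256 to 0.436), against 1.19 in C (0.966 to 1.48) and 1.02 in CK (0.840 to 1.25). The K over WT ratio was 0.183 in low-GC B cells, 0.349 in unannotated GC-marker B cells and 0.299 in plasma-marker cells. The summed constant genes (Ighm, Ighd, Ighg1, Ighg2b, Ighg2c, Ighg3, Igha and Ighe) stood at 1.06, 1.79, 1.01 and 1.03 times WT in the same classes, taking annotated, low-GC, GC-marker and plasma-marker cells in turn. Kappa V genes (Igkv) were also lower in K, at 0.523, 0.757, 0.565 and 0.356 times WT, while the kappa constant gene Igkc was at 1.09, 1.504, 1.16 and 1.06 times. Per 1000 UMIs of heavy chain constant genes, annotated cells held 5.95, 8.55, 1.88 and 6.93 Ighv UMIs. The K genotype, the K mouse and the K library cannot be told apart.

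**Figure D2:**
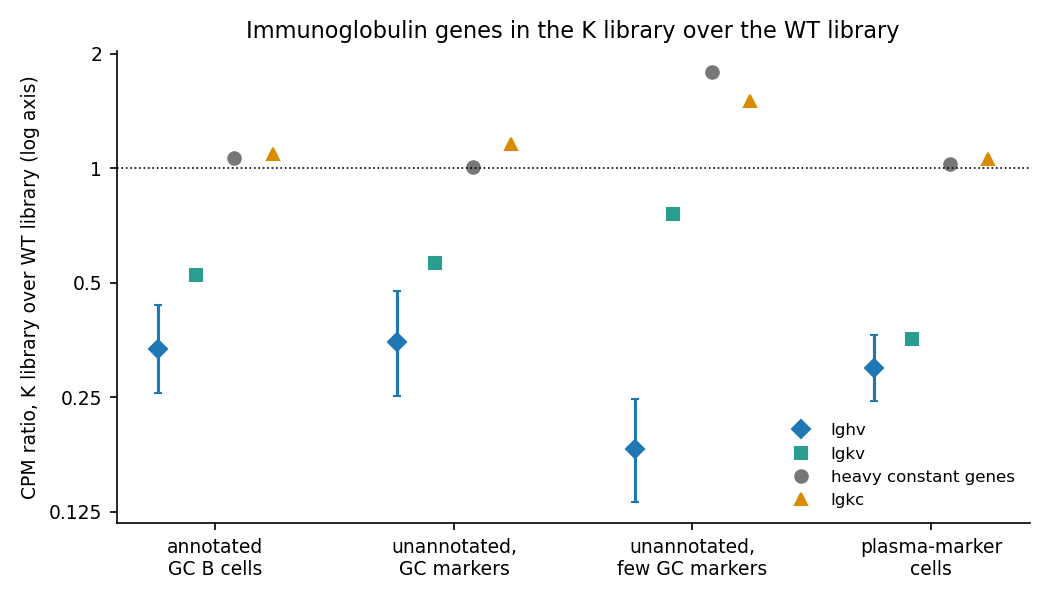
CPM in the K library over CPM in the WT library (log axis) for summed Ighv genes, Igkv genes, heavy chain constant genes and Igkc in 4 classes of cells, with exact conditional binomial 95% intervals on Ighv only. Both groups of V genes lie below 1 in every class, with Ighv between 0.183 and 0.349, and both groups of constant genes lie above 1.

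Among the GC subtypes, early centroblasts had lower and prememory cells mostly higher Ighv levels than centrocytes. Centrocytes, the light zone cells in which receptors are tested against antigen, had 24.1, 27.6, 9.19 and 25.1 CPM. Centroblasts, the dividing dark zone cells, had 21.8, 27.9, 9.66 and 22.7, and were higher than centrocytes in 2 of 4 libraries (p = 0.50, exact sign-flip permutation test). Early centroblasts had 12.8, 17.5, 4.23 and 14.9 CPM, lower than centrocytes in all 4 libraries at a geometric mean ratio of 0.551 (p = 0.13 by the same exact test). Their WT and K values rest on 3 and 5 UMIs. Within single libraries the interval of this ratio left out 1 only in CK (0.363 to 0.945). Transitioning cells had 17.5, 24.8, 6.70 and 24.4 CPM, also lower in all 4, at 0.825 (exact p = 0.13). Per constant gene UMI the transitioning cells were higher in 2 of 4 libraries, at 1.10, and centroblasts in 4 of 4, at 1.18. Prememory cells, which leave the GC towards memory, had 53.0, 50.2, 6.76 and 75.1 CPM and were higher than centrocytes in 3 of 4 libraries (exact p = 0.25). The K value rests on 2 UMIs. K was lower than WT as CPM in each of these 5 subtypes, with K over WT ratios from 0.127 in prememory cells to 0.443 in centroblasts, although in early centroblasts the interval (0.0646 to 2.14) took in 1. The 15 recycling cells of K held 0 Ighv UMIs.

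By leading isotype, the constant gene with the most UMIs in a cell, Ighv levels of switched and Ighm-led cells differed in no constant direction as CPM. Annotated cells led by Ighm had 24.8, 29.6, 7.32 and 24.1 Ighv CPM, and cells led by a switched isotype 15.4, 25.6, 9.37 and 27.7. The switched cells were higher in 2 of 4 libraries, at a geometric mean ratio of 0.944 (p = 0.75, exact sign-flip permutation test). Per UMI of heavy chain constant genes they were higher in 4 of 4, at 2.34, but these classes were set by the same constant gene UMIs. Gene by gene, Ighg1-led cells were compared with Ighm-led cells by edgeR's quasi-likelihood test on summed counts with the library as a block. No Ighv gene passed the filter on low counts, so 0 of 0 could be called, against 366 of 9430 genes (3.88%) at an adjusted p below 0.05. Without the filter, 104 Ighv genes entered, none was called and none had an unadjusted p below 0.05. DESeq2 gave no adjusted p for any Ighv gene. Ighg1-led cells gave 45 Ighv detections in all, which limits what could be detected. There were 6577 Ighm-led and 677 Ighg1-led annotated cells, of which 498 and 43 had an Ighv UMI. Low counts of single genes in Ighg1-led cells are therefore not read as differences. Ighv3-6 was detected in 23 Ighm-led and 0 Ighg1-led cells, and Ighv10-1 in 14 and 0. Ighv9-3 was detected in 49 Ighm-led and 8 Ighg1-led cells, Ighv5-2 in 18 and 1, Ighv9-1 in 3 and 2, and Ighv1-4 in 5 and 1.

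Although most cells had too few UMIs for a leading gene, the UMIs within a cell were largely of a single V gene. Of 92 annotated cells with at least 2 Ighv UMIs, 58 (63.0%, exact Clopper-Pearson interval 52.3 to 72.9%) held UMIs of 1 gene. If each UMI had been drawn from the usage of its library, 2.21% would have done so. By library the counts were 11 of 15, 16 of 32, 7 of 8 and 24 of 37. UMIs of 1 family were held by 79 of the 92, so part of the remaining cells mixed genes of the same family. The share was 97 of 147 in low-GC B cells, 51 of 81 in unannotated GC-marker B cells and 64 of 106 in plasma-marker cells.

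**Figure D3:**
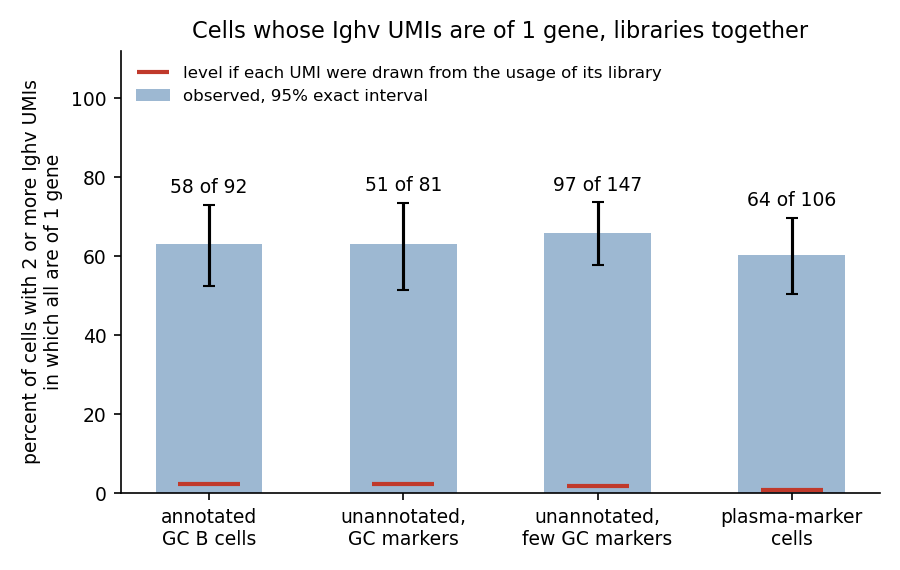
Bars give the percent of cells with at least 2 Ighv UMIs in which all were of 1 gene, with exact Clopper-Pearson 95% intervals and the cell counts above, over the 4 libraries together. The red lines mark the level if each UMI were drawn from the usage of its library. The bars lie between 60.4% and 66.0%, and the lines between 0.920% and 2.26%.

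The 14 annotated cells with a leading gene were too few for a usage profile. In CK, Ighv6-3 led in 4 cells and Ighv1-5, Ighv13-1 and Ighv2-5 in 1 each. In C, Ighv1-9, Ighv10-1, Ighv4-1 and Ighv6-3 led in 1 cell each. In K, Ighv1-18 and Ighv9-3 led in 1 cell each, and in WT, Ighv2-5 led in 1 cell with 5 UMIs. The 4 Ighv6-3 cells of CK were a centroblast, a centrocyte, an early centroblast and a transitioning cell, with 3 UMIs each. Their leading isotypes were Ighm, Ighg1 and, in a pair of cells, none. Just outside the rule stood the cells with 2 UMIs of a gene. With a minimum of 2 UMIs the numbers of cells were 12, 22, 7 and 30.

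By detections, Ighv9-3 was the most used heavy chain V gene in GC B cells of every library. It made up 13 of 125, 17 of 212, 12 of 88 and 30 of 324 detections, which is 10.3% ± 2.41 (SD, n = 4 libraries). Among low-GC B cells it held 6.42% ± 3.19 and was also first by the mean over libraries. The difference of 3.91 ± 5.22 percentage points was positive in 3 of 4 libraries. In plasma-marker cells it was found in 1 cell only, in K (0.532% as the mean). The gene lies in the small Ighv9 family, which held 12.1% of all Ighv UMIs in annotated cells with 4 genes.

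The other genes among the 10 most used by mean share were Ighv1-9 (5.04% ± 2.61), Ighv3-6 (4.33% ± 1.57), Ighv1-64 (3.36% ± 2.57), Ighv5-2 (3.17% ± 1.62), Ighv6-3 (2.40% ± 1.05), Ighv3-8 (2.34% ± 0.734), Ighv10-1 (2.30% ± 0.106), Ighv1-82 (2.21% ± 3.13) and Ighv5-6 (2.13% ± 0.719). Their shares in single libraries overlapped widely. Ighv1-82 ranged from 0 cells in WT to 6 of 88 detections in K, and Ighv5-2 from 7 detections in WT to 2 in K. Ighv13-2 was detected in 4 annotated cells of WT and 4 of CK, and in 0 of C and K. Among pseudogenes Ighv3-2 was the most frequent, with 1, 5, 3 and 6 cells. Ighv1-2, also annotated as a pseudogene, had 5 cells in C, 1 in WT and 0 in K and CK. Ighv1-42 had 6 cells in C and 1 in WT, 0 in K and 1 in CK.

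**Figure D4:**
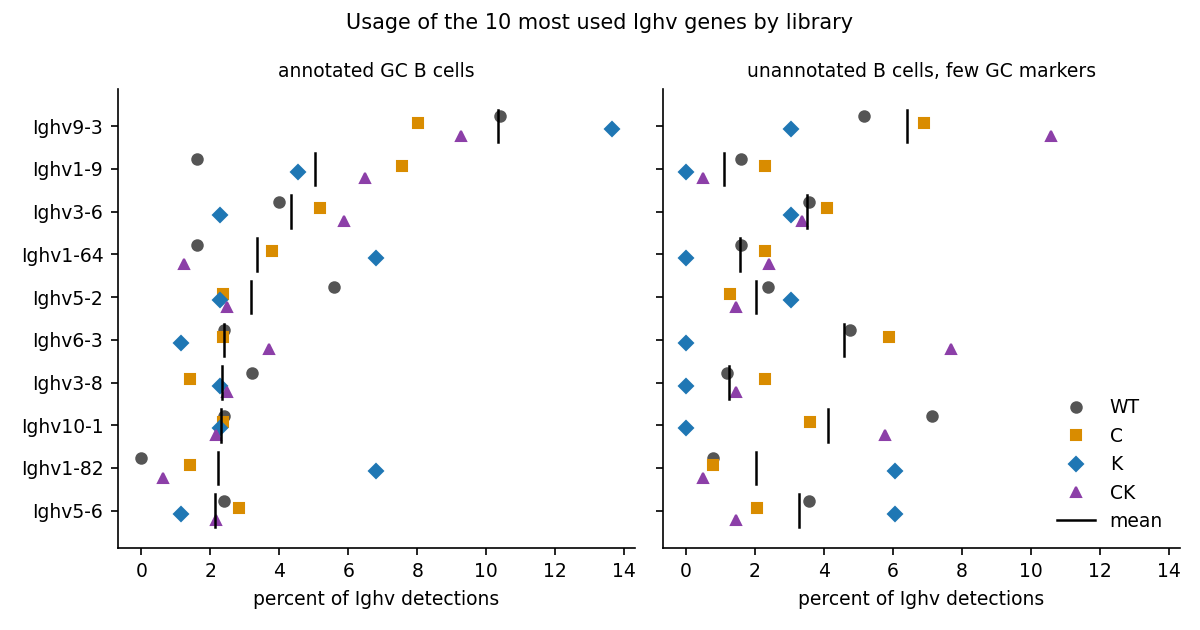
Percent of Ighv detections held by each of the 10 most used Ighv genes in annotated GC B cells (left) and low-GC B cells (right), with 1 point per library and a line at the mean over the 4 libraries. Ighv9-3 lies first in all 4 libraries of annotated cells, and Ighv1-9 lies at 5.04% on the left and 1.09% on the right.

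By subtype, Ighv9-3 was the most detected gene in centroblasts (20 of 189 detections), transitioning cells (24 of 261) and centrocytes (20 of 175). In early centroblasts Ighv1-9 came first with 4 of 41 detections and Ighv9-3 had 3. In prememory cells Ighv5-6, Ighv9-3 and Ighv6-3 each had 5 of 77, Ighv5-6 being first by the mean over libraries. Recycling cells gave 6 detections in all, with Ighv5-12 first by that mean.

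Detections were spread over many genes in every library. Brought to an equal number of 88 detections, the expected numbers of genes were 51.7, 46.4, 49.0 and 46.6. The effective number of genes, the inverse of the unbiased Simpson index, was 47.0, 41.3, 31.9 and 39.6. In plasma-marker cells it was 69.5, 61.6, 49.1 and 21.8, so CK was lowest there. The large Ighv1 family, with 93 genes, held 38.6% ± 6.81 of detections in annotated cells and 33.8% ± 2.52 in low-GC B cells. The difference of 4.77 ± 7.16 percentage points was negative in WT and positive in C, K and CK (p = 0.375, exact sign-flip permutation test). Among cells with a leading gene of at least 3 UMIs the difference was -27.2 ± 20.1 points (exact p = 0.25), which rests on 14 annotated cells. In plasma-marker cells the family held 62.1% ± 14.8.

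Ighv1-9 had the largest positive difference in mean share between annotated and low-GC B cells. In annotated cells it was detected in 2, 16, 4 and 21 cells, or 1.60%, 7.55%, 4.55% and 6.48% of detections. In low-GC B cells it was detected in 4, 9, 0 and 1 cells, or 1.09% ± 1.04, and ranked 36th there against 2nd in annotated cells. Its share was higher in annotated cells in 4 of 4 libraries, by 3.95 ± 2.69 percentage points, a difference for which the gene was named and which was therefore not tested. In WT this was 1.60% against 1.59%. It held 5.99% ± 1.13 in unannotated GC-marker B cells and 8.82% ± 7.22 in plasma-marker cells. When UMIs in place of cells were counted the difference from low-GC B cells was -0.137 percentage points. Low-GC B cells included 1 cell of C with 80 Ighv1-9 UMIs, 1 of CK with 10 and 1 of WT with 5. In these cells heavy chain constant genes made up 14.6%, 8.38% and 7.33% of all UMIs, and each expressed 1 or 2 of the 5 plasma markers. Ighv2-2 went the other way, with 1, 2, 3 and 0 annotated cells against 6, 4, 3 and 2 low-GC B cells and a lower share in 4 of 4 libraries, and was likewise named for that difference. Ighv6-3 and Ighv10-1 had lower mean shares in annotated cells, by 2.18 and 1.82 points, each in 3 of 4 libraries. Because the annotation was made from expression in these same cells, these differences between classes are descriptions.

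Between libraries, few Ighv genes reached the 20 UMIs, summed over both libraries, that a ratio required. In annotated cells of C over WT 1 of 2 such genes passed 2-fold, against 252 of 10152 genes overall (2.48%). In K over WT it was 0 of 1 (10.7% overall) and in CK over WT 2 of 4 (6.41% overall). None of these genes was past 2-fold lower, against 0.877% of genes in C, 8.89% in K and 2.5% in CK over WT. For K this rests on Ighv9-3 alone, at 0.512, and does not describe the Ighv genes left out by the filter. The summed Ighv level in annotated cells of K was 0.335 times WT. Ighv1-9 had 2, 18, 4 and 25 UMIs, with a CPM ratio over WT of 6.27 in C (interval 1.502 to 55.7) and 4.92 in CK (1.23 to 42.8). Ighv6-3 had 3, 9, 1 and 21 UMIs, with a ratio of 2.75 in CK over WT (0.822 to 14.4). Ighv9-3 had 14, 21, 15 and 34 UMIs, with ratios over WT of 0.512 for K, 0.956 for CK and 1.05 for C. In K over C both of 2 genes were past 2-fold, each lower (9.27% of genes overall in either direction, 8.54% lower), but with median-ratio scaling only 1 was, since Ighv9-3 stood at 0.490 by CPM. In CK over C it was 0 of 4 (2.74% in either direction, 1.61% lower), and in CK over K 3 of 4, each higher (8.45% in either direction, 0.578% lower). The intervals for Ighv1-9 are wide because WT had 2 UMIs. Over WT, Ighv1-9 and Ighv6-3 passed the filter only through the library in which they were high. So did all 3 genes past 2-fold in CK over K. Ighv3-6 had 2 UMIs in K and 21 in CK, Ighv6-3 had 1 and 21, and Ighv1-9 had 4 and 25. In K over C, Ighv1-9 likewise passed mainly through C, with 4 UMIs in K and 18 in C. The counts of Ighv genes past 2-fold follow in part from that filter and are descriptions. The genotype, the mouse and its clones cannot be told apart here.

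Plasma-marker cells were the only class in which the leading gene rule gave many cells. It gave 27 of 42, 21 of 44, 4 of 62 and 31 of 56 cells. Ighv1-9 led in 12 of these cells, 8 of CK, 3 of C and 1 of WT, and no other gene led in more than 4. In CK the leading counts of Ighv1-9 ranged from 3 to 25 UMIs. In WT the most used gene was Ighv2-6-8, with 4 cells, all of them paired with Igkv19-93. The highest count in any plasma-marker cell was 174 UMIs of Ighv2-5, in CK. Where both a heavy and a kappa gene led with at least 3 UMIs, 21 pairs occurred among 30 cells of CK, 20 among 25 of WT, 18 among 19 of C and 2 among 2 of K. The largest pair was Ighv2-6-8 with Igkv19-93 in WT, in 4 cells, and Ighv1-9 with Igkv1-117 in CK, in 5 cells. In annotated cells such pairs could be formed in 1 cell of C and 1 of CK only.

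In annotated and plasma-marker cells, those led by Ighv1-9 had 1 of 2 closely related kappa genes more often than cells led by other Ighv genes did. The pattern was noticed in the data and is given as counts, without a test. A leading gene was taken here from 1 UMI upwards, without a tie. In annotated cells with both a leading Ighv and a leading Igkv gene, Igkv1-117 or Igkv1-110 led in 9 of 12 cells led by Ighv1-9 (75.0%, 42.8 to 94.5%) and in 39 of 188 cells led by another Ighv gene (20.7%, 15.2 to 27.2%). In plasma-marker cells the counts were 15 of 17 (88.2%, 63.6 to 98.5%) and 23 of 121 (19.0%, 12.4 to 27.1%). In unannotated GC-marker B cells they were 7 of 13 (53.8%, 25.1 to 80.8%) and 37 of 154 (24.0%, 17.5 to 31.6%), with 0 of 3 for Ighv1-9 in WT. These intervals pool cells of 4 mice and treat each cell as independent. Of the Ighv1-9 cells, 9 of the 12 annotated and 9 of the 17 plasma-marker cells were from CK. The intervals are therefore no test of a difference. In low-GC B cells the counts were 1 of 7 and 34 of 205.

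**Figure D5:**
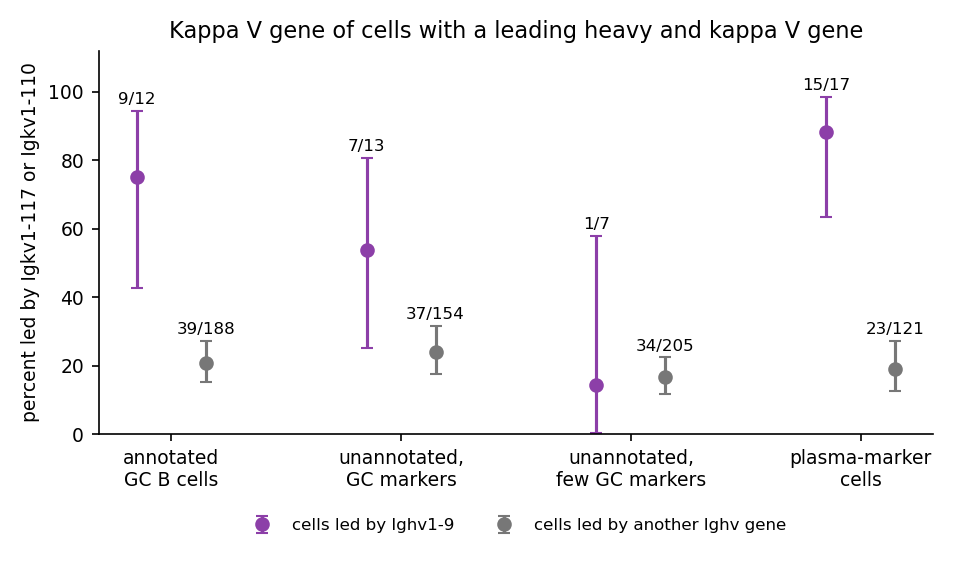
Percent of cells led by Igkv1-117 or Igkv1-110 among cells with a leading heavy and kappa V gene at 1 or more UMIs, for cells led by Ighv1-9 and by any other Ighv gene, with exact Clopper-Pearson 95% intervals and the counts above. Ighv1-9 cells lie at 75.0% of annotated and 88.2% of plasma-marker cells, and the other cells lie between 16.6% and 24.0% in all 4 classes.

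The pairing was seen in several libraries and with both kappa genes. Among annotated Ighv1-9 cells it was 2 of 2 in WT, 1 of 1 in C and 6 of 9 in CK, with no such cell in K. Among plasma-marker cells it was 8 of 9 for CK, 5 of 5 for C, 1 of 2 for K and 1 of 1 for WT. Igkv1-117 led in 8 of the 15 plasma-marker pairs and Igkv1-110 in 7. The leading isotype of these 15 cells was Ighg1 in 7, Ighg3 in 6, Ighg2b in 1 and Ighm in 1. Among the 9 annotated pairs it was Ighm in 4, Ighg2b in 3 and Ighg1 in 2. Pairs of these V genes therefore occurred in separate mice, and cells of 1 mouse may belong to 1 clone. At 97.2% identity, reads of either kappa gene could be counted under the other, so their separate counts are uncertain.

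The same kappa genes were also the most frequent in GC B cells at large, which sets the level to compare with. Igkv1-117 and Igkv1-110 led in 12.8% and 12.6% of 2492 annotated cells with a leading Igkv gene, and were the first 2 in each library. In low-GC B cells they led in 6.99% and 7.94% of 1802, and were also the first 2 there over the libraries together. Ighv6-3 was beside them in 5 of 7 annotated cells (71.4%, 29.0 to 96.3%), in 0 of 2 unannotated GC-marker B cells and in 0 of 15 low-GC B cells. By library the annotated counts were 4 of 6 in CK and 1 of 1 in C, with no such cell in WT or K. Most of these cells thus came from 1 mouse and may belong to 1 clone. Ighv9-3, in contrast, was beside these kappa genes in 3 of 19 annotated cells (15.8%, 3.38 to 39.6%) and in 0 of 15 unannotated GC-marker B cells.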

How the data were processed

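Droplet libraries of 3' ends from splenic B220+IgD- cells, 1 for each of 4 genotypes, gave the UMI counts per gene and barcode that the authors deposited. The matrix headers give the software version 3.0.2, the submitters' notes Cell Ranger 3.0, Seurat 4.0 and the build mm10. The authors named subtypes in Seurat by label transfer, on these cells integrated with other data sets that are not used here. Their deposited pseudotime, scores and percent columns were not used.

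Members and lists were chosen with earlier results of these data known. Populations came from marker genes and mitochondrial UMIs below 8%. Some marker genes used are not reported here. No doublet caller was run. Library totals ran from 33270825 to 39803865 UMIs. Named genes were the 10 highest mean shares, the 3 largest excesses per library, the 3 highest and 3 lowest differences between classes and between Ighg1- and Ighm-led cells, and the first gene per subtype, on shares of detections. Other genes were named after their values were seen. Ratios between libraries used CPM of genes with at least 20 UMIs. Ighg1-led and Ighm-led sums were tested in edgeR 4.0.16 (TMM, filterByExpr, Benjamini-Hochberg at 0.05), with DESeq2 1.42.0 as an alternative. On simulated counts for that comparison (9430 genes, 200 changed), 88% of 4-fold and 41% of 2-fold changes were called. Of the 132 calls, 3 were false. The 9430 genes that passed the filter included no Ighv gene, so how well changes in Ighv genes would be called was not tested. Library was the block in that fit, because both sums of a library come from the same animal. The Ighg1-led and Ighm-led classes were themselves set by constant gene counts. Python 3.11.15, scipy 1.17.1 and R 4.3.3 were used.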

Additional observations from a re-analysis of the deposited data

How the results depend on the processing

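The share of annotated cells with a leading gene, 0.0815%, 0.196%, 0.0774% and 0.177% (WT, C, K, CK), depends on the minimum count. It was 0.978%, 1.08%, 0.271% and 0.759% at 2 UMIs, and 9.62%, 9.11%, 3.33% and 7.69% at 1 UMI. At 5 UMIs it was 0% in C, K and CK, and after thinning to 2000 UMIs 0% in WT, C and K and 0.0276% in CK. In CK the most used gene held 57.1% of 7 cells, 16.7% at 2 UMIs, 9.21% at 1 UMI, 9.34% of all Ighv UMIs, and 100% after thinning, where 1 cell was left. The effective number in CK moved from 3.5 to 18.1 at 2 UMIs and 39.5 at 1 UMI, and could not be computed at 3 UMIs in the other libraries. The Ighv1 family difference of -27.2 percentage points turned to 5.70 at 1 UMI (the cause was not tested) and was -36.3 to -20.2 when 1 library was left out. The Ighv1-9 difference of 3.95 points turned to -0.137 by UMIs, where 1 low-GC B cell of C alone held 80, and was 3.27 to 5.26 when 1 library was left out. Without the replicate block, that is without the library as a block, 0 Ighv genes were called, as in every other setting for isotypes, and 19 genes in all were called against 366. DESeq2 called 129, and the minimum of 10 isotype UMIs left 34. The alternatives at 1 UMI, those for Ighv1-9 and those for the Ighv level over WT were chosen after seeing the data. Ratios by shares of cells with a leading gene, ratios at 50 UMIs over WT and the Ighv1 difference at 5 UMIs gave no value, since too few cells or UMIs were left. Of 82 alternatives computed, 60 left the value within its error or its count, 20 moved it and 2 turned its direction. The 60 are no measure of robustness. All isotype alternatives were entered among them, although in most of these 0 Ighv genes could be tested. Values from very few cells also had very wide intervals. In WT the share of the most used gene, 100% of 1 cell, counted as unchanged at 11.0% with a minimum of 1 UMI.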
